A study of Mus musculus with 12 samples.

Results

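The genes described here are 10 secreted proteins of the transforming growth factor beta (TGF-beta) superfamily in mouse: the ligand genes Tgfb1, Tgfb2, Tgfb3, Inhba, Inhbb, Bmp2 and Bmp4 and the antagonist genes Grem1, Fst and Chrd. They were taken by symbol from the table of counts per gene, in which 10 of the 10 were found among 52636 identifiers. RNA was counted in joints from the paws of 12 mice, with 1 mouse per library and 4 mice per group. Naive mice received the control antibody anti-gp120. Arthritic mice received serum of K/BxN mice, which transfers antibodies that inflame the joints, and either the same anti-gp120 (called the control-antibody mice here) or the anti-SIRPa antibody 6F2, described in the design as an agonist of SIRPa, an inhibitory receptor of myeloid cells. The tissues of the arthritic mice were taken 7 days after the serum. The strain, sex and age of the mice, and the antibody doses, were not given in the sources used here, and serum transfer models the effector stage of arthritis without the T and B cell events that precede it.

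TGF-beta and activin proteins are dimers that bind paired type I and type II receptor kinases and signal mainly through Smad2 and Smad3, whereas bone morphogenetic proteins (BMPs) signal through Smad1, Smad5 and Smad9. TGF-beta is secreted in a latent form bound to the matrix and must be released before it acts, and activins and BMPs are held in check by secreted proteins that bind them. In joints this family is known for its part in cartilage upkeep, fibrosis of the synovium and the growth of bone at inflamed sites.

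All 10 genes are protein-coding and are placed here on build GRCm38 with GENCODE M21. Tgfb1 (ENSMUSG00000002603) lies on chromosome 7 from 25687002 to 25705077, Tgfb2 (ENSMUSG00000039239) on chromosome 1 from 186622792 to 186705989, and Tgfb3 (ENSMUSG00000021253) on chromosome 12 from 86056745 to 86079041. Inhba (ENSMUSG00000041324) lies on chromosome 13 from 16011851 to 16031621 and Inhbb (ENSMUSG00000037035) on chromosome 1 from 119415465 to 119422248. Bmp2 (ENSMUSG00000027358) lies on chromosome 2 from 133552159 to 133562885 and Bmp4 (ENSMUSG00000021835) on chromosome 14 from 46383520 to 46390669. Of the antagonists, Grem1 (ENSMUSG00000074934) lies on chromosome 2 from 113746164 to 113758646, Fst (ENSMUSG00000021765) on chromosome 13 from 114452290 to 114458951, and Chrd (ENSMUSG00000006958) on chromosome 16 from 20733127 to 20742384.

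Promoter sequences of RefSeq (GRCm38.p6), from 250 bases before to 50 bases after the start of the gene, matched 7 of the 10 genes. Those of Tgfb2, Bmp4 and Inhba are printed because Tgfb2 and Bmp4 were the genes called in both comparisons with the control-antibody mice, while Inhba was called in the opposite direction in arthritis. Capitals mark matches to the motifs searched on both strands, which were the TATA box motif TATAAA, the AP-1 motif TGANTCA, the Smad element CAGACA, the BMP Smad element GGCGCC, and the E-box CACGTG, which was added after the sequences had been read.
Tgfb2, chr1:186705940-186706239, minus strand: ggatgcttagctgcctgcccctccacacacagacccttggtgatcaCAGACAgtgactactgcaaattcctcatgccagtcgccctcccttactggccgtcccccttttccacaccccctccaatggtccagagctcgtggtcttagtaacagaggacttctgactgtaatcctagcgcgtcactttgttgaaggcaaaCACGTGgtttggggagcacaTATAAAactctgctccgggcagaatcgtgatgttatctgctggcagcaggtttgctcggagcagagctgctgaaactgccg
Bmp4, chr14:46390620-46390919, minus strand: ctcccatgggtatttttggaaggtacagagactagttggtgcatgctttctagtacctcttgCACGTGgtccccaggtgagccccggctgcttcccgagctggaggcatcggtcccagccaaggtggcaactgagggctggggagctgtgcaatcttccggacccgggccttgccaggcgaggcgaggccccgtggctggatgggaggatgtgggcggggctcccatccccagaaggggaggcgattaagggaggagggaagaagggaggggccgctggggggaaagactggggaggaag
Inhba, chr13:16011601-16011900, plus strand: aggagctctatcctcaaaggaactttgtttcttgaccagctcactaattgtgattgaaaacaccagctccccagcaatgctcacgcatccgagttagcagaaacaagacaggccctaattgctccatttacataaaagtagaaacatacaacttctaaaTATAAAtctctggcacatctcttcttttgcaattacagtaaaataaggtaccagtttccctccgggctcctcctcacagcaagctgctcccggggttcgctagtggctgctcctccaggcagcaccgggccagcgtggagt

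CACGTG was found 51 bases upstream of the Tgfb2 start and 188 bases upstream of the Bmp4 start, and 7.15% of 32851 mouse promoters of this length hold it. TATAAA was found 31 bases upstream in Tgfb2 and 91 bases upstream in Inhba, and 13.6% of promoters hold it. CAGACA was found 204 bases upstream in Tgfb2 (21.0% of promoters hold it) and also in Chrd. GGCGCC was matched in Grem1 and Chrd (11.9% of promoters), and TGANTCA in none of the 7 (7.81% of promoters). No 2 of the motifs found in a printed promoter overlap. These matches describe the letters only.

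Total counts ran from 6893969 to 17597920 per library. The lowest was that of control-antibody mouse 2, and the next lowest was 12361420, in control-antibody mouse 3. Control-antibody mice 2 and 4 had counts in 28937 and 30066 genes, against 21505 to 23118 in the other libraries. The smell and taste receptor genes, which joints should not express, summed to 516 and 221 CPM (counts scaled by library size) in control-antibody mice 2 and 4, against 10.1 to 29.1 CPM in the other 10 libraries. The gene model Gm26917 held 2.89, 8.28, 6.82 and 4.55% of counts in control-antibody mice 1 to 4 and 1.63 to 2.52% in all other mice, so that it separated the control-antibody mice without overlap, as Tgfb2 and Bmp4 did. Control-antibody mouse 1 lay within the range of the naive mice for Tgfb3, Inhbb, Grem1 and Chrd and just below the lowest of them for Inhba, and stood apart from control-antibody mice 2, 3 and 4 in several of the results below. Summed skeletal muscle markers (5 genes) were 28006, 10456, 13524 and 19521 CPM in control-antibody mice 1 to 4, against 26303 to 36162 CPM in naive and 19941 to 28951 CPM in anti-SIRPa mice. Summed macrophage markers (5 genes) were 269, 562, 552 and 574 CPM in control-antibody mice, against 317 to 347 CPM in naive and 347 to 484 CPM in anti-SIRPa mice. Of the macrophage markers 2 of 5 (Adgre1 and Cd68) were called higher in control-antibody than in naive mice, and 0 of 5 muscle markers were called. All 8 joint markers, including Col2a1 and Acan of cartilage and Prg4 of the synovial lining, were detected, though Bglap was at 0 in some libraries. In arthritis 2 of 8 joint markers, 2 of 4 tested neutrophil markers and 1 of 6 synovial fibroblast markers were called higher, and 1 of 6 synovial fibroblast and 1 of 4 endothelial markers lower. Between the antibodies 2 of 4 adipocyte markers were called higher with anti-SIRPa (sums of 71.3 to 106 CPM against 17.3 to 64.2 CPM), as were 1 synovial fibroblast, 1 endothelial and 1 erythroid marker, and 1 synovial fibroblast marker was lower. Summed epidermal markers varied from 2.96 to 13830 CPM across libraries within and between groups. The part of these differences in the results below was not tested.

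Per kilobase of exon (RPKM, computed from the counts and the annotated exon length), the order of levels in naive joints began with Tgfb3 at 17.9 ± 1.77 (SD, n = 4 here and throughout) and Tgfb2 at 15.9 ± 2.14. Tgfb1 followed at 8.91 ± 0.919, Bmp4 at 8.17 ± 0.744 and Bmp2 at 7.25 ± 0.697 RPKM. Fst was at 5.50 ± 0.403, Inhbb at 4.37 ± 1.09 and Inhba at 3.96 ± 0.820 RPKM, and Chrd (1.47 ± 0.318) and Grem1 (0.160 ± 0.160) were lowest. The ranges of the naive mice overlapped between Tgfb3 and Tgfb2, between Tgfb1, Bmp4 and Bmp2 as neighbours, between Fst and Inhbb, and between Inhbb and Inhba, so that these neighbours cannot be ordered. In control-antibody mice the order became Tgfb3 (24.5 ± 4.16), Tgfb1 (12.2 ± 3.87), Inhba (11.4 ± 7.00), Tgfb2 (7.85 ± 1.53), Fst (6.00 ± 1.74), Inhbb (5.39 ± 1.21), Bmp2 (5.13 ± 0.750) and Bmp4 (4.65 ± 0.949), with Chrd (1.31 ± 0.332) and Grem1 (0.196 ± 0.0243) again lowest. Of these neighbours, the ranges did not overlap between Tgfb3 and Tgfb1, between Bmp4 and Chrd, or between Chrd and Grem1. In anti-SIRPa mice Tgfb3 (17.3, from 15.5 to 19.1) and Tgfb2 (14.4 ± 1.07) were again at the top, followed by Tgfb1 (9.30 ± 0.312), Bmp4 (7.42 ± 0.296), Bmp2 (5.67 ± 0.739), Fst (4.93 ± 0.996), Inhba (3.98 ± 0.656), Inhbb (3.65 ± 0.808), Chrd (1.28 ± 0.226) and Grem1 (0.487 ± 0.323) RPKM. Here the ranges overlapped between Tgfb3 and Tgfb2, from Bmp2 through Fst and Inhba to Inhbb as neighbours, and between Chrd and Grem1.

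**Figure D1:**
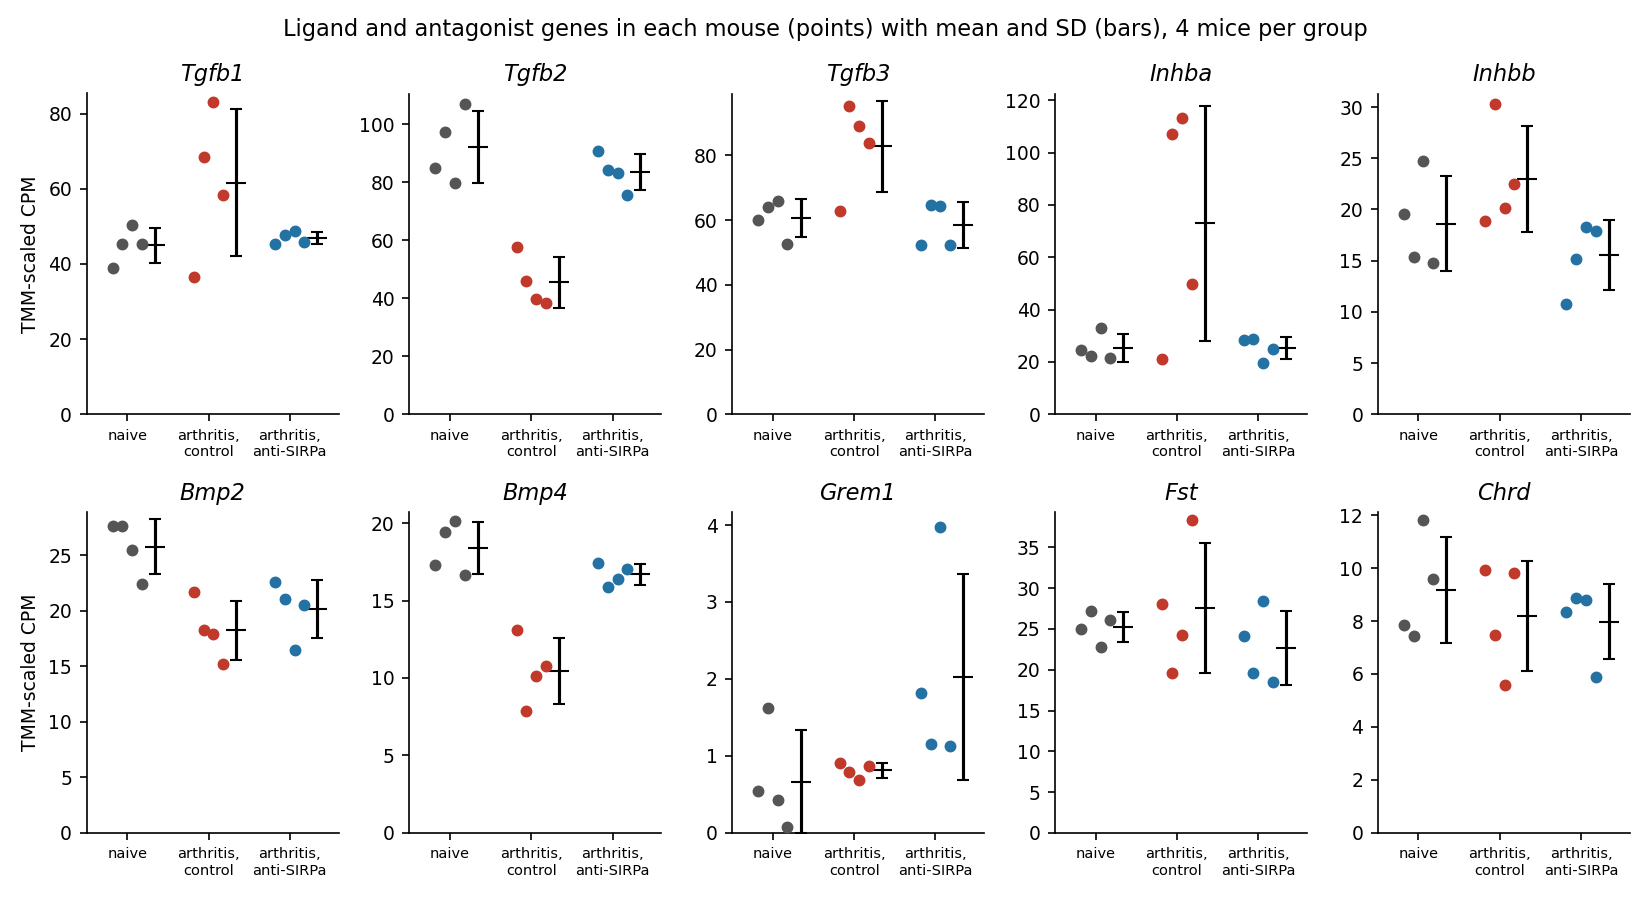
Level of each of the 10 genes in CPM (linear axes starting at 0) in each mouse of the 3 groups, with the group mean and SD of 4 mice. Tgfb2 and Bmp4 of the control-antibody mice sit below every naive and every anti-SIRPa mouse, whereas Inhba is high in control-antibody mice 2, 3 and 4 and at the naive level in mouse 1.

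All 10 genes passed the filter on low counts. Arthritic mice given the control antibody differed from naive mice (edgeR adjusted p under 0.05) in 4 of the 10, with Inhba higher and Tgfb2, Bmp4 and Bmp2 lower, where 10.3% of the 16674 genes tested were called, 5.87% of them higher and 4.45% lower. The median log2 fold change of the 10 was 0.20, against 0.03 over all genes tested. The 10 genes were chosen with earlier results of these data known, so that the shares of all genes are no independent comparison. Anti-SIRPa differed from control-antibody mice in 2 of the 10, Tgfb2 and Bmp4, both higher, where 3.29% of genes were called, 1.59% higher and 1.70% lower, and the median of the 10 was -0.16 against -0.03 over all genes. No gene differed between anti-SIRPa and naive mice (0% called). Both arthritis comparisons use the same 4 control-antibody mice, so that a gene low or high in these mice has opposite signs in the pair of comparisons. Over all genes, fits that left out 1 mouse called 412 to 4693 in arthritis and 0 to 3976 between the antibodies. The most were called without control-antibody mouse 1. Without both control-antibody mice 2 and 4, 1 and 0 genes were called. Calls kept or lost below when mice are left out are to be read beside these totals. In whole joint tissue, fewer cells of a type and less RNA per cell cannot be told apart.

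**Figure D2:**
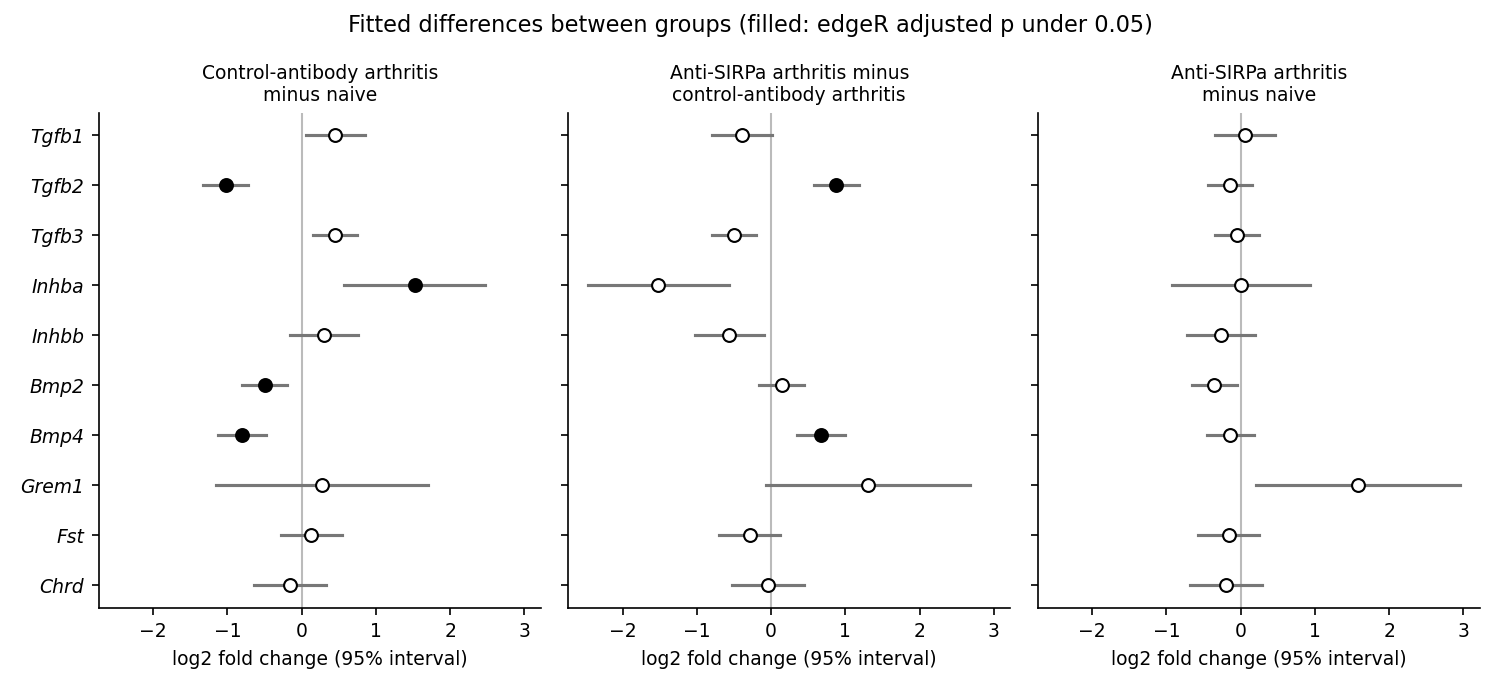
Log2 fold change of each of the 10 genes in the 3 comparisons, with bars for the 95% interval of the fit and filled symbols for an edgeR adjusted p under 0.05. Tgfb2 and Bmp4 are called in both comparisons that involve the control-antibody mice, and none of the 10 is called between anti-SIRPa and naive mice.

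Tgfb2 encodes the TGF-beta isoform known from heart, eye and skeletal development. It measured 85.0, 97.5, 79.7 and 107 CPM in naive mice 1 to 4, 57.8, 46.0, 39.8 and 38.3 CPM in control-antibody mice, and 90.8, 84.2, 83.2 and 75.7 CPM in anti-SIRPa mice. Every control-antibody mouse was thus below every mouse of both other groups. Of all genes, 6.47% separated from naive mice and 5.18% from anti-SIRPa mice in this direction. The level fell from a mean of 92.3 ± 12.4 to 45.5 ± 8.86 CPM in arthritis, a log2 fold change of -1.02 ± 0.14 (SE; edgeR adjusted p = 0.00500). In anti-SIRPa mice it was 83.5 ± 6.20 CPM, higher than in control-antibody mice by 0.88 ± 0.14 on the log2 scale (edgeR adjusted p = 0.0158). The difference of anti-SIRPa from naive mice was -0.15 ± 0.14, with a 95% interval from -0.45 to 0.15. The fall in arthritis was called in each of 12 fits that left out 1 mouse, and was lost when control-antibody mice 2 and 4 were both left out (log2 fold change -0.94, edgeR adjusted p = 0.0887). The difference between the antibodies was not called without control-antibody mouse 3 (0.82, edgeR adjusted p = 0.0595) or 4 (0.81, 0.0507), or without anti-SIRPa mouse 1 (0.84, 0.0707) or 2 (0.88, 0.0682), over alternatives from 2.67e-06 to 0.177. Over all genes, 1 was called between the antibodies without control-antibody mouse 3 or without mouse 4, and 0 without anti-SIRPa mouse 1 or 2. Without control-antibody mice 2 and 4 together, 1 gene was called in arthritis.

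Muscle markers were low in control-antibody mice 2, 3 and 4, where Tgfb2 was lowest, at muscle sums of 10456, 13524 and 19521 CPM beside Tgfb2 levels of 46.0, 39.8 and 38.3 CPM. In control-antibody mouse 1 they were 28006 and 57.8 CPM, and in anti-SIRPa mouse 4 they were 19941 and 75.7 CPM. The 3 genes whose levels were most like that of Tgfb2 over the 12 libraries were Inpp4b (r = 0.989), the muscle gene Myl2 (r = 0.982) and Tpm3 (r = 0.981). The part of muscle content in the Tgfb2 result was not tested. The annotated genes on the opposite strand that share exon bases with Tgfb2 held 1 count in all.

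Tgfb1 encodes the isoform abundant in platelets and immune cells. It measured 39.0, 45.2, 50.3 and 45.3 CPM in naive mice, 36.6, 68.6, 83.0 and 58.3 CPM in control-antibody mice, and 45.3, 47.7, 48.7 and 45.9 CPM in anti-SIRPa mice. Control-antibody mouse 1 was the lowest of all 12 mice and the other control-antibody mice were the highest 3, so that the groups overlapped. The log2 fold change was 0.46 ± 0.19 in arthritis (edgeR adjusted p = 0.129) and -0.39 ± 0.19 for anti-SIRPa against control antibody (0.213), and neither was called. Without control-antibody mouse 1 both were called, at 0.63 (edgeR adjusted p = 0.00192) and -0.57 (0.00487). Over all genes, that fit called 4693 and 3976, against 1721 and 548 with all mice.

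Tgfb3 encodes the isoform known from palate fusion and from tendon and cartilage differentiation. It measured 59.9, 64.1, 65.9 and 52.5 CPM in naive mice, 62.9, 95.4, 89.0 and 83.8 CPM in control-antibody mice, and 52.3, 64.8, 64.5 and 52.4 CPM in anti-SIRPa mice. Control-antibody mice 2, 3 and 4 were above every other mouse, and mouse 1 was among the naive values. The log2 fold changes of 0.45 ± 0.14 in arthritis (edgeR adjusted p = 0.0544) and -0.50 ± 0.14 for anti-SIRPa against control antibody (0.0607) missed the threshold. Both were called without control-antibody mouse 1, at 0.55 (edgeR adjusted p = 0.00328) and -0.60 (0.00247), and both with DESeq2 over all mice, at 0.42 (adjusted p = 0.0294) and -0.48 (0.0167). Over all genes, the fit without mouse 1 called 4693 and 3976, and DESeq2 2905 and 1892, against 1721 and 548 in the main fit. With genes kept at 1 CPM or more in 4 libraries, edgeR called the difference in arthritis (adjusted p = 0.0499).

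On the RPKM scale, the shares of Tgfb2 and Tgfb3 in the sum of the 3 isoforms set the control-antibody mice apart from both other groups. The ranges of the sum overlapped between the groups, and each share overlapped between naive and anti-SIRPa mice. The sum was 42.8 ± 1.94 RPKM in naive, 44.5 ± 6.62 in control-antibody and 41.0 ± 2.64 in anti-SIRPa mice. Tgfb2 made up 36.6, 37.6, 31.9 and 43.0% of this sum in naive mice, 27.9, 16.0, 13.9 and 15.4% in control-antibody mice, and 39.1, 33.7, 33.3 and 34.7% in anti-SIRPa mice. The share of Tgfb2 in every control-antibody mouse was below that in every other mouse, mouse 1 included. The share of Tgfb3 was 41.9 ± 4.05% in naive, 54.8 ± 2.81% in control-antibody and 42.1 ± 2.80% in anti-SIRPa mice, and its lowest control-antibody value of 51.9% was above the highest of the other groups, 45.1%. The shares sum to the whole, so that a lower Tgfb2 raises the others. The 51.9% was that of mouse 1, where Tgfb3 was at 18.6 RPKM, within the naive range of 15.5 to 19.5 RPKM. Tgfb2 was at 9.98 RPKM in this mouse, below the naive lowest of 13.8 RPKM. The share of Tgfb1 was 20.8 ± 1.64%, 26.9 ± 5.27% and 22.7 ± 0.999%, and overlapped between the groups. A share within a library does not depend on the scaling between libraries, and these shares were given no test.

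**Figure D3:**
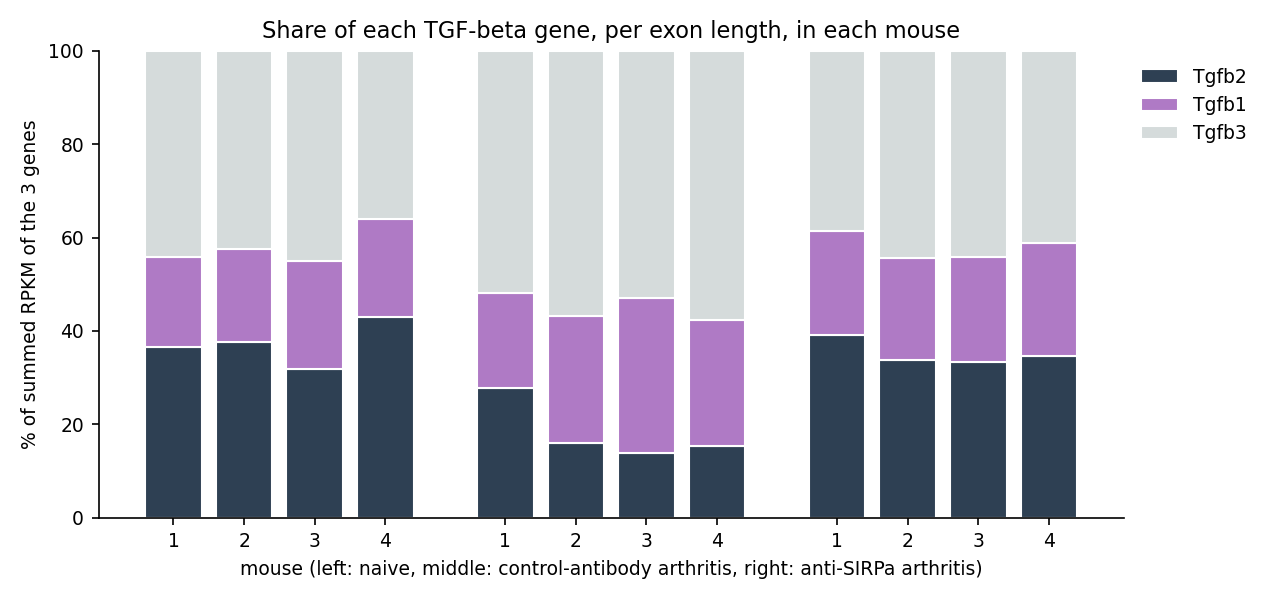
Share of the summed RPKM of Tgfb1, Tgfb2 and Tgfb3 held by each isoform, as stacked percentages that start at 0, in each of the 12 mice. The Tgfb2 part is between 13.9% and 27.9% in the control-antibody mice and between 31.9% and 43.0% in all other mice.

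Inhba encodes the beta A subunit, whose dimer is activin A. It measured 24.7, 22.4, 32.9 and 21.3 CPM in naive mice, 21.3, 107, 113 and 49.8 CPM in control-antibody mice, and 28.4, 28.6, 19.6 and 25.0 CPM in anti-SIRPa mice. Control-antibody mice 2 and 3 were the highest, mouse 4 was intermediate, and mouse 1 was at the naive level. The mean rose from 25.3 ± 5.24 to 72.9 ± 44.8 CPM in arthritis, a log2 fold change of 1.52 ± 0.43 (edgeR adjusted p = 0.0476), although the groups overlapped. This call was made in 6 of 23 alternatives and in 1 of the 12 fits that left out 1 mouse, that without control-antibody mouse 1 (1.82, edgeR adjusted p = 0.000591). The other 11 of these fits lost it, whichever of the remaining mice was left out, with adjusted p up to 0.133. For anti-SIRPa against control antibody the log2 fold change was -1.52 ± 0.43 (edgeR adjusted p = 0.0703), not called. It was called without control-antibody mouse 1 (-1.81, edgeR adjusted p = 0.000875) and with DESeq2 (-1.49, adjusted p = 0.00244). Over all genes, the fit without mouse 1 called 4693 in arthritis and 3976 between the antibodies, against 1721 and 548 in the main fit. Anti-SIRPa differed from naive mice by 0.01 ± 0.42, with a wide 95% interval from -0.93 to 0.94. In the 3 control-antibody mice with high Inhba (2, 3 and 4), some markers of several cell types were high as well, and muscle markers were low. Their macrophage sums were 552 to 574 CPM. Pdpn of synovial fibroblasts was at 59.8, 69.2 and 51.0 CPM against 10.6 to 19.4 CPM in all other mice. Acan of cartilage was at 184, 175 and 117 CPM against at most 60.9 CPM, and Csf3r of neutrophils at 16.3, 9.29 and 5.49 CPM against at most 2.96 CPM. In mice 2, 3 and 4, Thy1, Comp, Ibsp and Cxcr2 were also higher than in all other mice. Cd55 and Dpp4 of synovial fibroblasts went the other way. Cd55 was at 19.0, 25.8 and 33.3 CPM against at least 56.0 CPM, and Dpp4 at 4.20, 3.93 and 6.43 CPM against at least 9.07 CPM. Prg4, Pdgfra, Col2a1, Scx, Tnmd, Bglap, S100a8, S100a9 and Retnlg overlapped with the other mice. Gm26917 was also highest in these mice. The part of these cells and of this library sign in the Inhba result was not tested.

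Inhbb encodes the beta B subunit of activin B. It measured 19.6, 15.3, 24.7 and 14.8 CPM in naive mice, 18.9, 30.3, 20.1 and 22.5 CPM in control-antibody mice, and 10.8, 15.1, 18.3 and 17.9 CPM in anti-SIRPa mice. Every anti-SIRPa mouse was below every control-antibody mouse, which held for 4.82% of all genes in this direction. The log2 fold change of -0.56 ± 0.21 did not pass the test (edgeR adjusted p = 0.134), nor did the 0.30 ± 0.21 of arthritis against naive (0.383). Per kilobase, the ratio of Inhba to Inhbb was 0.840, 0.974, 0.885 and 0.959 in naive mice, 0.751, 2.35, 3.76 and 1.47 in control-antibody mice, and 1.75, 1.26, 0.716 and 0.931 in anti-SIRPa mice. Inhba thus exceeded Inhbb in no naive mouse, in 3 control-antibody mice and in 2 anti-SIRPa mice.

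Bmp4 encodes a BMP of bone formation and of limb and vessel development. It measured 17.3, 19.5, 20.1 and 16.6 CPM in naive mice, 13.1, 7.88, 10.1 and 10.8 CPM in control-antibody mice, and 17.4, 15.9, 16.4 and 17.0 CPM in anti-SIRPa mice. Every control-antibody mouse was below every mouse of the other groups. The mean fell from 18.4 ± 1.67 to 10.5 ± 2.13 CPM in arthritis, a log2 fold change of -0.81 ± 0.15 (edgeR adjusted p = 0.0103), and was 16.7 ± 0.665 CPM in anti-SIRPa mice, 0.67 ± 0.15 above control antibody (0.0368). The fall in arthritis was called in 12 of 12 fits that left out 1 mouse and was lost without control-antibody mice 2 and 4 (-0.68, edgeR adjusted p = 0.114). The difference between the antibodies was called in 3 of these 12 fits, those without naive mouse 4, control-antibody mouse 1 or anti-SIRPa mouse 4, and lost in the other 9, with adjusted p up to 0.109. Anti-SIRPa differed from naive mice by -0.14 ± 0.15 (95% interval -0.46 to 0.18). The gene that shares exon bases with Bmp4 on the opposite strand had 0 counts.

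Bmp2 encodes a strong inducer of bone and cartilage formation. It measured 27.6, 27.6, 25.4 and 22.4 CPM in naive mice, 21.7, 18.3, 17.9 and 15.2 CPM in control-antibody mice, and 22.6, 21.1, 16.5 and 20.6 CPM in anti-SIRPa mice. The control-antibody mice were below all naive mice and overlapped with the anti-SIRPa mice. The mean fell from 25.8 ± 2.48 to 18.2 ± 2.67 CPM, a log2 fold change of -0.50 ± 0.14 (edgeR adjusted p = 0.0413), which was called in 9 of 23 alternatives. It was kept without control-antibody mouse 1 or without anti-SIRPa mouse 3 or 4, and lost in the other 9 fits that left out 1 mouse, with adjusted p up to 0.108. Anti-SIRPa mice were at 20.2 ± 2.63 CPM, 0.15 ± 0.14 from control antibody (edgeR adjusted p = 0.559) and -0.35 ± 0.14 from naive, with a 95% interval from -0.65 to -0.05 and no call after adjustment (edgeR adjusted p = 1.0). Tgfb2, Bmp4 and Bmp2 were thus the 3 of the 10 genes whose control-antibody mice were all below all naive mice, which held for 6.47% of genes. None of the 10 had all control-antibody mice above all naive mice, which held for 6.02% of genes (12.5% for both directions together).

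Grem1 encodes gremlin, an antagonist of BMP2 and BMP4 and a marker of fibroblast subsets. It was the gene with the fewest reads, at 9, 23, 6 and 1 counts in naive mice, 11, 6, 9 and 12 in control-antibody mice, and 31, 18, 55 and 20 in anti-SIRPa mice. On the CPM scale these were 0.55, 1.62, 0.42 and 0.08, then 0.91, 0.79, 0.68 and 0.87, then 1.82, 1.16, 3.97 and 1.13. Every anti-SIRPa mouse was above every control-antibody mouse, which held for 5.18% of genes in this direction, and naive mouse 2 overlapped with the anti-SIRPa mice. The log2 fold change of anti-SIRPa against control antibody was 1.30 ± 0.64 (edgeR adjusted p = 0.229), that against naive 1.58 ± 0.64 (95% interval 0.21 to 2.95, edgeR adjusted p = 1.0), and that of arthritis against naive 0.28 ± 0.66 (0.818). None was called, and with few reads and a wide spread between mice a fold change of the size seen could not be separated from that spread.

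Fst encodes follistatin, which binds and neutralizes activins. It measured 25.0, 27.2, 22.8 and 26.1 CPM in naive mice, 28.0, 19.6, 24.2 and 38.3 CPM in control-antibody mice, and 24.1, 19.6, 28.4 and 18.5 CPM in anti-SIRPa mice, with all 3 groups overlapping. The log2 fold change was 0.13 ± 0.19 in arthritis (edgeR adjusted p = 0.701) and -0.29 ± 0.19 for anti-SIRPa against control antibody (0.371). Per kilobase, the ratio of Inhba to Fst was 0.711, 0.592, 1.03 and 0.587 in naive mice, 0.544, 3.93, 3.36 and 0.933 in control-antibody mice, and 0.848, 1.05, 0.496 and 0.974 in anti-SIRPa mice. Control-antibody mice 2 and 3 had more than 3 times as much Inhba as Fst, and mice 1 and 4 were within the range of the other groups.

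Chrd encodes chordin, an extracellular antagonist of BMP2, BMP4 and BMP7. It measured 7.85, 7.45, 11.8 and 9.58 CPM in naive mice, 9.92, 7.49, 5.59 and 9.82 CPM in control-antibody mice, and 8.34, 8.89, 8.81 and 5.89 CPM in anti-SIRPa mice. The groups overlapped, with log2 fold changes of -0.16 ± 0.23 in arthritis (edgeR adjusted p = 0.689) and -0.04 ± 0.23 for anti-SIRPa against control antibody (0.931). Chrd shares 239 exon bases with Thpo on the opposite strand, and Thpo held 815 counts in all, so that some reads of this pair may be assigned to the wrong gene if strand was not used in counting. The genes sharing exon bases with Tgfb3 and Fst on the opposite strand held at most 20 counts each. Of the 3 antagonist genes, then, 0 passed the test in any comparison, beside 10.3%, 3.29% and 0% of all genes. With 3 genes at such shares, a lack of calls is no result about antagonists as a class.

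The table of genes was searched for those whose log2 CPM was most like that of each called member over the 12 libraries, by Pearson r among 13952 genes with symbols. For Tgfb2 these were Inpp4b (r = 0.989), Myl2 (0.982) and Tpm3 (0.981), and for Bmp4 Ltbp4 (0.980), Crybg3 (0.970) and Rab21 (0.966). For Inhba they were Fbln2 (0.993), Sod3 (0.987) and Trpm6 (0.981), and for Bmp2 Rps6kb2 (0.918), Spred2 (0.908) and Dusp8 (0.881). Among the 10 genes themselves, r was 0.918 between Tgfb1 and Inhba, 0.876 between Tgfb2 and Bmp4, 0.862 between Tgfb3 and Inhba, -0.846 between Tgfb2 and Tgfb3 and -0.830 between Inhba and Bmp4. All values of r are descriptions over libraries that share their groups, depth and tissue makeup, and carry no test.

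The other genes of the pathway were read in 7 lists, which were chosen with earlier results of these data known. The first list holds 12 genes that store or release latent TGF-beta. In this list 0 rose and 1 fell in arthritis (4.45% of all genes fell) and 1 was higher with anti-SIRPa than with control antibody (1.59% of all genes), the same gene each time, Ltbp4, which encodes a protein that binds latent TGF-beta in elastic matrix. Ltbp4 measured 527, 570.0, 594 and 563 CPM in naive mice, 393, 223, 267 and 275 CPM in control-antibody mice, and 509, 519, 461 and 529 CPM in anti-SIRPa mice, with the control-antibody mice below all others. Its log2 fold change was -0.96 ± 0.16 in arthritis (edgeR adjusted p = 0.00746) and 0.80 ± 0.16 for anti-SIRPa (0.0289). The latter was lost without any one of control-antibody mice 2, 3 and 4 or anti-SIRPa mice 1 and 2 (adjusted p from 0.0712 to 0.0952). The median of the list was 0.29 in arthritis and -0.33 for anti-SIRPa, opposite in sign to Ltbp4, against 0.03 and -0.03 over all genes.

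Of 11 other ligand genes, 10 could be tested. In arthritis 0 rose and 2 fell, beside 4.45% of all genes called lower, with a list median of -0.58 against 0.03 over all genes. Inha, the inhibin alpha subunit that opposes activin, fell from 3.37 ± 0.929 to 1.22 ± 0.278 CPM (log2 fold change -1.46 ± 0.32, edgeR adjusted p = 0.0165), a call lost without naive mouse 4 (0.0562) or control-antibody mouse 3 (0.0556). Bmp6, a BMP also known from iron regulation, measured 24.0, 25.4, 30.7 and 27.9 CPM in naive and 19.3, 16.0, 9.97 and 12.4 CPM in control-antibody mice, without overlap (-0.91 ± 0.18, edgeR adjusted p = 0.0119). Between the antibodies 1 of the 10 was higher and 0 lower, beside 1.59% of all genes called higher, with a median of 0.51 against -0.03. This was Bmp5, at 16.3, 4.73, 9.52 and 10.2 CPM in control-antibody and 21.3, 18.9, 28.1 and 18.9 CPM in anti-SIRPa mice (1.09 ± 0.27, edgeR adjusted p = 0.0481), and the call stood only without control-antibody mouse 1 among the 12 fits that left out 1 mouse.

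None of 13 receptor genes was called in any comparison, beside 10.3%, 3.29% and 0% of all genes. Log2 fold changes in arthritis ranged from -0.53 for Acvr2b, an activin receptor, to 0.70 for Eng, the accessory receptor endoglin of vessels. Tgfbr2 and Bmpr2 (lower) and Acvr2a and Bmpr1b (higher) did not overlap between control-antibody and naive mice. Of all genes, 12.5% did not overlap there, both directions together. Bmpr1b had an edgeR adjusted p of 0.0568. Of 13 other antagonist genes, 1 rose in arthritis and 0 fell, beside 5.87% of all genes called higher. Between the antibodies 0 were called, beside 3.29% of all genes. The gene that rose was Bmper, a BMP-binding regulator of vessels, at 4.14, 4.35, 6.96 and 4.83 CPM in naive and 4.38, 16.3, 12.2 and 14.7 CPM in control-antibody mice (1.23 ± 0.33, edgeR adjusted p = 0.0348). Control-antibody mouse 1 was again at the naive level, and the call was lost in 7 of 12 fits that left out 1 mouse: naive 1, 2 or 4, control-antibody 2, 3 or 4, or anti-SIRPa 2 (adjusted p up to 0.0994). Of 12 Smads and their regulators, 1 rose in arthritis and 0 fell, again beside 5.87% of all genes. Between the antibodies 0 were called, again beside 3.29%. Skil, which encodes the Smad repressor SnoN and is itself induced by TGF-beta, rose from 78.2 ± 4.67 to 103 ± 14.6 CPM (0.40 ± 0.12, edgeR adjusted p = 0.0457), a call kept only without control-antibody mouse 1 among the 12 such fits.

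Of 11 genes known to be induced by TGF-beta or activin, 4 rose and 0 fell in arthritis, beside 5.87% of all genes called higher, with a list median of 0.51. As this list was chosen with earlier results of these data known, the count is no independent evidence of an excess. The 4 were Postn, Col1a1, Col1a2 and Lox, all of matrix or of its turnover, and each is also induced by other signals. Postn, the matrix protein periostin, measured 61.9, 66.4, 69.2 and 32.7 CPM in naive, 74.4, 352, 342 and 316 CPM in control-antibody and 55.3, 42.7, 84.2 and 68.5 CPM in anti-SIRPa mice (2.24 ± 0.45, edgeR adjusted p = 0.0166, and -2.11 ± 0.45, 0.0376). Col1a1, the main collagen of bone and scar, measured 2267, 2967, 3997 and 1734 CPM in naive and 2927, 19663, 11860.0 and 12322 CPM in control-antibody mice (2.09 ± 0.45, edgeR adjusted p = 0.0165). Col1a2, which encodes the other chain of the same collagen, measured 1495, 1833, 2374 and 1115 CPM in naive and 1657, 8962, 5674 and 5821 CPM in control-antibody mice (1.70 ± 0.40, edgeR adjusted p = 0.0218). As with Inhba, control-antibody mouse 1 was near the naive level for Postn, Col1a1 and Col1a2.

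Between the antibodies 0 of these 11 genes were higher and 2 lower with anti-SIRPa (Postn and Lox), beside 1.70% of all genes called lower, with a list median of -0.42. Lox, which crosslinks collagen, measured 109, 442, 604 and 316 CPM in control-antibody and 118, 110.2, 117 and 123 CPM in anti-SIRPa mice (-1.65 ± 0.38, edgeR adjusted p = 0.0423). Of the calls in arthritis, that of Col1a1 was lost without naive mouse 4 (edgeR adjusted p = 0.0556) and that of Postn without control-antibody mouse 2 or 3 (up to 0.0557). That of Col1a2 was lost without naive mouse 1, 2 or 4 or control-antibody mouse 2, 3 or 4 (up to 0.0698), and that of Lox without naive mouse 1, 2 or 4 or control-antibody mouse 2 or 3 (up to 0.0733). Of the calls between the antibodies, that of Postn was kept only without naive mouse 4 or control-antibody mouse 1, and that of Lox only without control-antibody mouse 1.

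Of 8 genes known to be induced by BMPs, 0 rose and 1 fell in arthritis, beside 4.45% of all genes called lower, and 1 was higher with anti-SIRPa than with control antibody, beside 1.59% called higher. In both comparisons this was Msx1, a homeobox transcription factor of limb and tooth development, at 24.3, 23.7, 22.1 and 20.9 CPM in naive mice, 10.6, 7.49, 9.59 and 14.4 CPM in control-antibody mice, and 25.5, 14.8, 19.6 and 20.2 CPM in anti-SIRPa mice. The control-antibody mice were below all other mice, mouse 1 included, as for Tgfb2 and Bmp4. The log2 fold change was -1.11 ± 0.20 in arthritis (edgeR adjusted p = 0.00964), kept in 12 of 12 fits that left out 1 mouse, and 0.92 ± 0.20 for anti-SIRPa (0.0338). The latter was kept only without naive mouse 4, control-antibody mouse 1 or anti-SIRPa mouse 4. The median of the list was -0.26 in arthritis and 0.29 between the antibodies, and the other 7 genes, the Id genes among them, were not called.

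**Figure D4:**
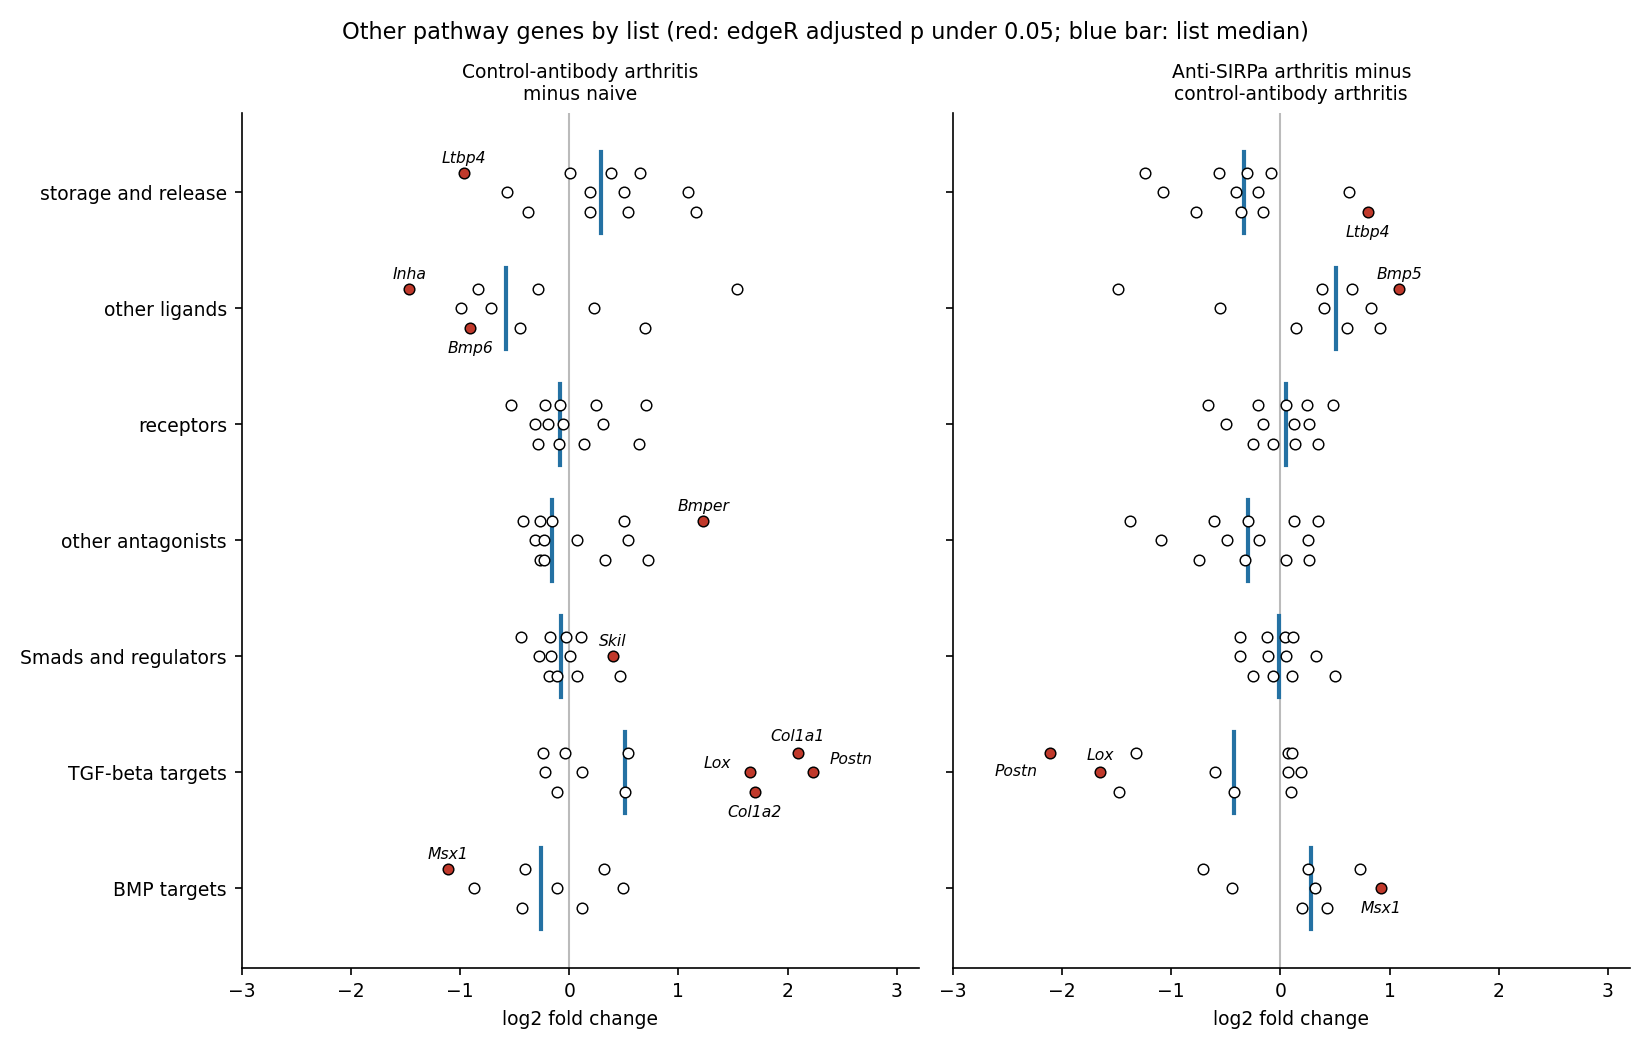
Log2 fold change of every tested gene of the 7 pathway lists in the comparisons of control-antibody arthritis with naive mice and of anti-SIRPa with control-antibody arthritis (red: edgeR adjusted p under 0.05; blue bar: list median). Postn, Col1a1, Col1a2 and Lox lie on the right in arthritis. No receptor gene is called in either comparison, beside 10.3% and 3.29% of all genes.

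Anti-SIRPa mice differed from naive mice in 0 of the 10 genes and in 0 genes of the 7 lists. Over all 16674 genes edgeR called 0, limma-voom called 0 and DESeq2 called 20, and 675 genes (4.05%) had an unadjusted p under 0.05 with edgeR. Of the 10 genes, Bmp2 (log2 fold change -0.35) and Grem1 (1.58) were under 0.05 before adjustment. None of the 10 had groups without overlap, where 4.89% of all genes did, 3.04% with anti-SIRPa mice higher and 1.85% with them lower. The 95% intervals allow differences for the most precise genes, Tgfb2 and Tgfb3, of -0.45 to 0.15 and of -0.35 to 0.24 on the log2 scale, and for Inhba of -0.93 to 0.94, so that a lack of calls does not show equal levels.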

How the data were processed

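Stranded total RNA libraries were made from the joints of 12 mice, per the labels' protocols. The values deposited by the authors are raw whole-number counts of reads for each gene, per the file headers, and the submitters' processing notes name build GRCm38. The sources used here name no aligner, counting program or strand setting. All 12 sample files equal the series table, and identifiers without a symbol held 0.0173% of counts. No pair of libraries of the same group agreed within sampling noise, and pairs across groups were not compared in this way.

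Genes were tested in R 4.3.3 with edgeR 4.0.16: filterByExpr by group, TMM scaling, and a robust quasi-likelihood fit over all 12 libraries with 1 coefficient per group. P-values were adjusted by Benjamini-Hochberg over 16674 genes, with a threshold of 0.05. CPM is TMM-scaled, and RPKM divides it by the length of all annotated exons in GENCODE M21. A log2 fold change is given ± SE, and its 95% interval is from the fit. Correlations used log2 CPM with a prior count of 2. The alternatives were other scalings and filters, DESeq2 1.42.0, limma-voom (limma 3.58.1), non-robust, 2-group and blocked fits, and libraries left out. The members, gene lists and motifs were chosen with earlier results of these data known. Named are all 10 genes, in each list and comparison the called genes with the smallest p, up to 3, and the 3 genes most correlated with each called member. Acvr2b, Eng, Tgfbr2, Bmpr2, Acvr2a, Bmpr1b and the CACGTG motif were added after the values or sequences were seen. One gene of the list of TGF-beta targets is not reported here.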

Additional observations from a re-analysis of the deposited data

Results flagged for a closer look

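In 63 checks of a gene in a group of 4 mice, 3 had a mouse far from the others by Dixon's test, which flags about 1 in 20 groups by chance. Postn in control-antibody mouse 1, at 74.4 CPM against 316 to 352 CPM in the other 3, had a gap of 0.871 of the group's range. Lox in naive mouse 3, at 145 CPM against 103 to 110 CPM, had a gap of 0.85 of the range. Col1a2 in anti-SIRPa mouse 4, at 2812 CPM against 1949 to 2057 CPM, had a gap of 0.875 of the range. None of these is one of the 10 ligand and antagonist genes.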

How the results depend on the processing

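Arthritis against naive called 1721 genes, and 2905 with DESeq2, 435 in a fit of only the 2 groups, 1 without control-antibody mice 2 and 4, and 166 without naive mouse 4 and anti-SIRPa mouse 2. Leaving out 1 mouse gave 412 (without control-antibody mouse 3) to 4693 (without control-antibody mouse 1). Anti-SIRPa against control antibody called 548 genes, and 1892 with DESeq2, 345 with limma-voom and 0 in a fit of only the 2 groups, without control-antibody mice 2 and 4, or without naive mouse 4 and anti-SIRPa mouse 2. Leaving out 1 mouse gave 0 (without anti-SIRPa mouse 1 or 2) to 3976 (without control-antibody mouse 1). Anti-SIRPa against naive called 0 genes, 4 without a filter and 20 with DESeq2. The cause of these moves was not tested. With the replicate number as a block, the first 2 comparisons called 735 and 78 genes. Same-numbered mice deviated with r from -0.80 to 0.207 and 0 of 12 libraries correlated best with their own number, so no sign of pairing by number was seen. This check over all genes also carries differences in tissue makeup between mice and cannot exclude a pairing. Under the block, and also in the 2-group fit, the calls of Inhba and Bmp2 in arthritis and of Bmp4 between the antibodies were lost, and the 2-group fit also lost that of Tgfb2 between the antibodies. Of the values of the 10 genes under the alternatives, 610 kept direction and call, 53 lost and 9 gained a call, and 18 reversed, none of them called in the main analysis. In arthritis, Grem1 reversed to -0.093 without naive mouse 4, with or without anti-SIRPa mouse 2. Over the fits that left out 1 mouse it ran from -0.093 to 1.136, and Fst from -0.077 (without control-antibody mouse 4) to 0.258. Between the antibodies, Chrd reversed to 0.017 without a filter and 0.067 without control-antibody mice 2 and 4, and ran from -0.186 to 0.119 when 1 mouse was left out. Between anti-SIRPa and naive mice, Inhba reversed to -0.105 without naive mouse 4 and anti-SIRPa mouse 2. There, leaving out 1 mouse gave -0.055 to 0.156 for Inhba, -0.001 to 0.120 for Tgfb1, -0.105 to 0.003 for Tgfb3, -0.018 to 0.083 for Skil, -0.052 to 0.269 for Postn and -0.026 to 0.133 for Lox. Grem1 had the fewest counts of the 10 genes, at 201 over all libraries.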
